A study of Harpegnathos saltator with 35 samples.

Results

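Kr-h1 (gene LOC112589664) was followed through all 35 libraries of primary neuronal cultures from the ant Harpegnathos saltator. It was picked by its identifier, as 1 gene of the 14001 in the expression table, and it is among the 9873 genes tested. Dissociated central brains were cultured for 5 days with 2 µM of an insect hormone, either 20-hydroxyecdysone (20E, the active moulting hormone) or juvenile hormone III (JH3). Fresh medium with 2 µM of the hormone not used until then was given for 30 min, 6 h or 24 h, while the baseline cultures had DMSO for 30 min instead.

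JH3 cultures had a baseline with 4 libraries, and 20E was given for 30 min in 5 libraries, for 6 h in 6 and for 24 h in 4. 20E cultures had a baseline with 5 libraries, and JH3 was given for 30 min in 3 libraries, for 6 h in 5 and for 24 h in 3. The baselines had DMSO for 30 min only, so in the 6 h and 24 h cultures the hormone given, the hormone withdrawn and the time since the medium change cannot be told apart. All cultures spent their first 4 days in honeybee pupal extract. The series' design text calls the replicates independent and does not say whether they shared animals.

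The libraries came from 3 sequencing runs, called A, B and C. The JH3 baseline came from runs A and B, and the 20E cultures given JH3 for 24 h from run C alone. Recovered reads numbered 5937979 to 22650403 per library, of which 191 to 7520 were from Kr-h1. All 10 matched neuronal markers had a median of at least 1 FPKM, and their summed level was between 284 and 792 FPKM. Of the listed neuronal markers elav and futsch were not matched by symbol. The 5 matched glial markers summed to between 28.5 and 98.4 FPKM, with a median of 13.5 FPKM for repo, the glial homeobox factor, so the cultures held glial RNA too.

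Kr-h1 (Krüppel homolog 1) is a zinc finger transcription factor. In insects juvenile hormone binds the receptor Met, which with its partner Taiman activates the Kr-h1 gene, and in larvae the Kr-h1 protein holds back the metamorphic genes br and Eip93F. Ecdysone acts through the receptor pair EcR and Usp and switches on a cascade of nuclear receptors and other regulators. In Harpegnathos the balance of these hormones differs between workers and gamergates, the workers that have become reproductive.

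In JH3 cultures Kr-h1 stood at 14.0, 36.9, 18.3 and 40.7 FPKM (fragments per length of gene, scaled between libraries) in the 4 baseline libraries. After 30 min of 20E it was at 30.0, 35.8, 27.2, 25.6 and 27.9 FPKM. The levels at 30 min lay within the range of the baseline and closer together. After 6 h of 20E the 6 libraries ran from 28.3 to 62.6 FPKM with a median of 43.3. After 24 h they were at 48.8, 49.9, 38.5 and 58.8 FPKM. Giving 20E to JH3 cultures was thus not followed by lower Kr-h1 at any of the 3 times measured, and the baseline and 24 h ranges overlapped only between 38.5 and 40.7 FPKM.

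In 20E cultures Kr-h1 stood lower, at 6.06, 3.26, 8.78, 14.5 and 9.41 FPKM in the 5 baseline libraries. After 30 min of JH3 it was at 5.61, 8.25 and 7.10 FPKM, inside the baseline range. After 6 h of JH3 it was at 49.4, 83.3, 26.7, 118 and 25.0 FPKM. After 24 h it was at 102, 41.5 and 40.8 FPKM. Every library at 6 h and 24 h was above every baseline library, and both groups held libraries that differed several-fold from each other.

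**Figure D1:**
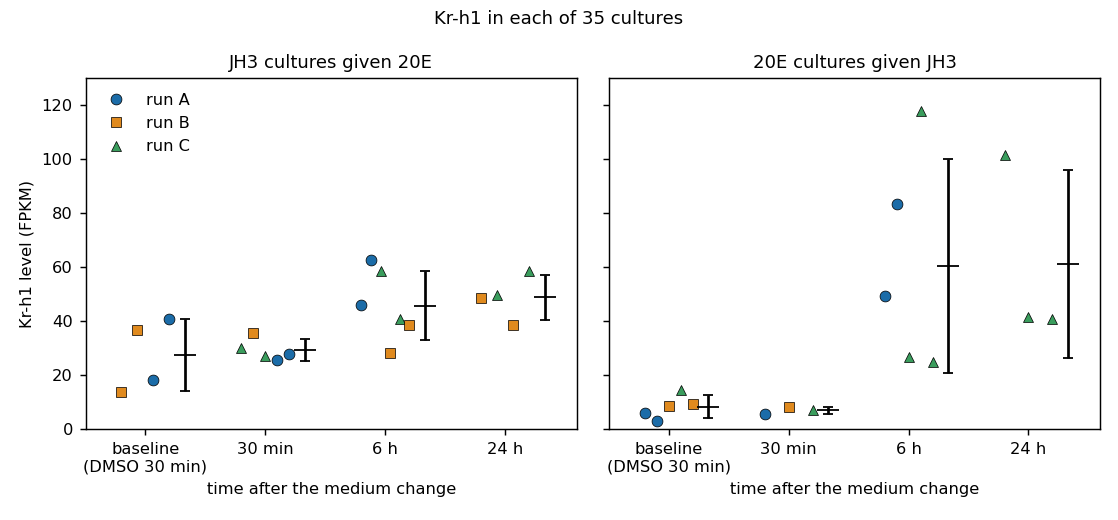
Kr-h1 level (FPKM, linear axis) in each of 35 cultures by time after the medium change, for JH3 cultures given 20E and 20E cultures given JH3. Points are libraries, with colour and shape for the sequencing run, and bars are the mean ± SD of the group. All 20E cultures given JH3 for 6 h or 24 h sat at 25.0 FPKM or more, above the 20E baseline, whose highest culture was at 14.5.

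The 8 groups are given here in order of mean level, in 3 steps read off the means, while libraries of adjacent steps overlapped. Lowest were the 20E cultures given JH3 for 30 min, at 6.99 ± 1.32 FPKM (SD, n = 3), and the 20E baseline at 8.40 ± 4.19 FPKM (n = 5). Next came the JH3 baseline at 27.5 ± 13.3 FPKM (n = 4) and JH3 cultures given 20E for 30 min at 29.3 ± 3.96 FPKM (n = 5). Highest were JH3 cultures given 20E for 6 h, at 45.8 ± 12.9 FPKM (n = 6), and for 24 h, at 49.0 ± 8.33 FPKM (n = 4), followed by 20E cultures given JH3 for 6 h, at 60.5 ± 39.8 FPKM (n = 5), and for 24 h, at 61.3 ± 34.8 FPKM (n = 3). Placed among the tested genes, the 20E baseline level was above the group mean of 54.2% of them, and the level after 6 h of JH3 above 96.5%.

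Neighbours in this order mostly could not be separated. In exact two-sided permutation tests of log2(FPKM + 1), Benjamini-Hochberg adjusted over the 28 pairs of groups, 11 pairs had an adjusted p under 0.05, and 14 pairs had ranges that did not overlap. Every pair of neighbours overlapped. The only neighbours past the threshold were JH3 cultures given 20E for 6 h and for 30 min, which differed by 0.59 on the log2 scale (exact permutation p = 0.0173, adjusted 0.0455). With run means removed 5 of the 28 pairs passed.

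Kr-h1 was higher in the JH3 baseline than in the 20E baseline, at 27.5 ± 13.3 FPKM in JH3 cultures (n = 4) and 8.40 ± 4.19 FPKM in 20E cultures (n = 5), a 3.27-fold ratio of means. On the log2(FPKM + 1) scale, which understates the change of low genes, the run-adjusted difference in limma was 1.62 (SE 0.39, 95% interval 0.81 to 2.42, Benjamini-Hochberg adjusted p = 0.00361 over all tested genes). The groups touched, since the lowest JH3 culture was at 14.0 FPKM and the highest 20E culture at 14.5, and the exact permutation test gave p = 0.0238. In this comparison 21.1% of tested genes were called, so a call is common, and Kr-h1 was rank 80 by rise. Within run A, with 2 cultures in each baseline, the difference was 2.37 (adjusted p = 0.0292 in limma), where 1.65% of genes were called. In runs B and C together it came to 1.12 (adjusted p = 0.194 in limma), where 10.8% were called. There the JH3 baseline had 2 cultures, both from run B, and the 20E baseline had 2 from run B and 1 from run C. The matched neuronal markers summed to 446 to 663 FPKM in the JH3 baseline and 305 to 633 FPKM in the 20E baseline. The 3 matched of 6 fat body markers summed to 20.4 to 28.7 FPKM in the JH3 baseline and 11.8 to 15.2 FPKM in the 20E baseline, without overlap, while the storage protein gene Hex70a among them was at or near 0, at most 0.11 FPKM in any library. Over all libraries fdl had a median of 16.8 FPKM and apolpp of 2.79 FPKM. The sum thus rests mostly on 1 gene, fdl, and is a weak measure of fat body cells. Glial sums ran from 31.4 to 60.3 FPKM in the JH3 baseline and from 36.7 to 49.7 FPKM in the 20E baseline. The part of these cells in the result was not tested. In bulk RNA a change in the share of cells that express Kr-h1 and a change in its RNA per cell cannot be told apart.

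Kr-h1 rose in 20E cultures given JH3 for 6 h and for 24 h. At 6 h Kr-h1 was at 60.5 ± 39.8 FPKM (n = 5) and in the 20E baseline at 8.40 ± 4.19 FPKM (n = 5), a 7.19-fold ratio of means. The limma difference was 2.53 (SE 0.38, 95% interval 1.74 to 3.32, adjusted p = 0.000845), which was rank 1 by rise and rank 4 by p among the 9873 genes. Only 5 genes, 0.0506% of those tested, were called. The ranges did not overlap, and the exact permutation p of 0.00794 is the smallest that 5 against 5 cultures allow.

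At 24 h of JH3 the mean was 61.3 ± 34.8 FPKM (n = 3), against 8.40 ± 4.19 FPKM in the 20E baseline (n = 5), a 7.29-fold ratio. The limma difference was 2.62 (SE 0.46, 95% interval 1.67 to 3.57, adjusted p = 0.00397), rank 4 by rise and rank 10 by p, in a comparison where 0.243% of genes were called. The exact permutation p of 0.0179 is again the smallest this design allows, and both times share the 20E baseline. That test and the ratio of means take no account of run. The 24 h cultures were all from run C. The 20E baseline averaged 4.66 FPKM in run A (n = 2), 9.10 in run B (n = 2) and 14.5 in run C (n = 1). The fat body markers, of which fdl had the highest median level, summed to 18.7 to 24.8 FPKM at 24 h and 11.9 to 18.9 FPKM at 6 h. In the 20E baseline they summed to 11.8 to 15.2 FPKM, and their part in the result was not tested. From 6 h to 24 h no further change was found: the difference between 24 h and 6 h of JH3 was 0.09 (95% interval -0.80 to 0.99, adjusted p = 0.944 in limma), where 0.0203% of genes were called. At 30 min of JH3 the difference from the 20E baseline was -0.14 (95% interval -1.01 to 0.73, adjusted p = 0.907 in limma), and limma called 0% of genes there, with 1008 genes at an unadjusted p under 0.05 and 0 called by voom on recovered reads.

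Both rises passed with the spread estimated over all 35 libraries, and fits to single sets of runs or to only the compared groups did not keep the calls. With limma fitted to only the groups compared, the 6 h difference was 2.69 (unadjusted p = 0.000933, adjusted p = 0.464), where 0.0304% of genes were called. The 24 h difference was 1.87 in limma (unadjusted p = 0.00569, adjusted p = 0.0676), where 0% were called. Within run A the 6 h difference was 3.57 (unadjusted p = 1.74e-05, adjusted p = 0.0516 in limma). For runs B and C together it was 1.75 at 6 h (unadjusted p = 0.00257, adjusted p = 0.385 in limma). At 24 h in those runs it was 2.12 (unadjusted p = 0.000506, adjusted p = 0.165 in limma). In that order, 0.0101%, 0.0203% and 0.0608% of tested genes were called. The cultures given JH3 for 24 h held no run A library. Run C held 1 baseline culture, at 14.5 FPKM, below all 6 of its cultures given JH3 for 6 h or 24 h, which lay between 25.0 and 118 FPKM.

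Giving 20E to JH3 cultures was followed by no called change in Kr-h1. At 30 min the means were 29.3 ± 3.96 FPKM with 20E (n = 5) and 27.5 ± 13.3 FPKM in the JH3 baseline (n = 4). The limma difference was 0.16 (95% interval -0.66 to 0.99, adjusted p = 0.999), and 0% of genes were called, with 168 at an unadjusted p under 0.05 and 0 called by voom. At 6 h Kr-h1 averaged 45.8 ± 12.9 FPKM (n = 6) against 27.5 ± 13.3 FPKM in the JH3 baseline, and the difference was 0.76 (SE 0.38, 95% interval -0.02 to 1.54, unadjusted p = 0.0572, adjusted p = 1.00 in limma; 0.506% of genes called). All 6 cultures were above the mean of the baseline. At 24 h it averaged 49.0 ± 8.33 FPKM (n = 4) against 27.5 ± 13.3 FPKM in the JH3 baseline, with a difference of 0.87 (SE 0.43, 95% interval -0.01 to 1.75, unadjusted p = 0.0532, adjusted p = 0.295 in limma; 5.22% of genes called). The exact permutation p was 0.0571 at both times. The upper bounds allow rises as large as 1.54 and 1.75, and the lower bounds lie next to 0. With library weights in limma the 24 h difference was 1.15 and passed (adjusted p = 0.0228), but 20.4% of genes were called there. The 24 h and 6 h cultures given 20E differed from each other by 0.11 (95% interval -0.67 to 0.89, adjusted p = 0.908 in limma), with 2.81% of genes called.

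**Figure D2:**
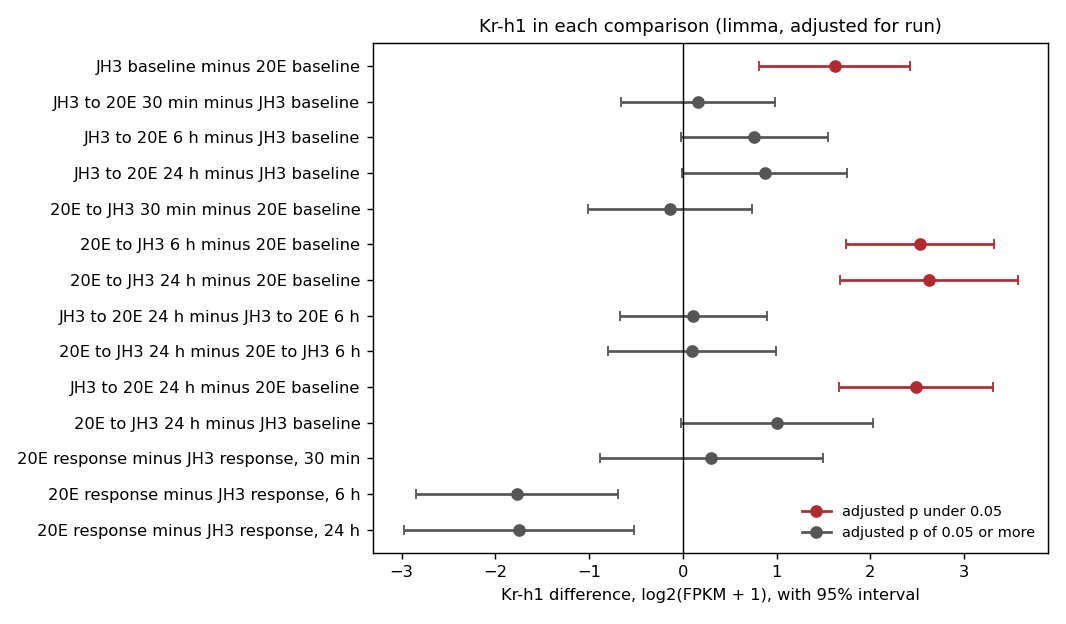
Difference of Kr-h1 in each comparison, on the log2(FPKM + 1) scale from limma with run as a term. Points are estimates, bars are 95% intervals, and red marks a Benjamini-Hochberg adjusted p under 0.05 over all 9873 genes. The rises at 6 h and 24 h of JH3, at 2.53 and 2.62, and the difference of the baselines, at 1.62, lie clear of 0, while the 3 differences after 20E do not.

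The endpoints of each switch were also set against the baseline of the other hormone. JH3 cultures given 20E for 24 h stood at 49.0 ± 8.33 FPKM (n = 4), against 8.40 ± 4.19 FPKM in the 20E baseline (n = 5), so after a day in 20E they were 5.83-fold above the cultures that had been in 20E for 5 days. That difference was 2.49 (SE 0.40, 95% interval 1.67 to 3.31, adjusted p = 8.86e-05 in limma), with no overlap and 16.9% of genes called. The fat body markers, of which fdl had the highest median level, summed to 18.7 to 22.4 FPKM in these JH3 cultures. In the 20E baseline they summed to 11.8 to 15.2 FPKM, again without overlap, and their part in the result was not tested. 20E cultures given JH3 for 24 h stood at 61.3 ± 34.8 FPKM (n = 3), against 27.5 ± 13.3 FPKM in the JH3 baseline (n = 4). Their difference of 1.00 (SE 0.50, 95% interval -0.02 to 2.03) did not pass (adjusted p = 0.256 in limma; 7.9% of genes called). The lowest of these cultures, at 40.8 FPKM, was next to the highest of the JH3 baseline, at 40.7, and the exact permutation p was 0.143. These groups shared no sequencing run, so the adjustment for run came from other groups. The permutation test takes no account of run and cannot tell run from treatment here.

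Whether the switches differed was tested directly, as the response to 20E in JH3 cultures minus the response to JH3 in 20E cultures. At 30 min this was 0.30 (95% interval -0.89 to 1.49, adjusted p = 0.831 in limma), where 0% of genes were called, 936 had an unadjusted p under 0.05 and voom called 0. At 6 h it was -1.77 (SE 0.53, 95% interval -2.85 to -0.69, unadjusted p = 0.00229, adjusted p = 0.368 in limma), with 0.233% of genes called. At 24 h it was -1.75 (SE 0.60, 95% interval -2.98 to -0.52, unadjusted p = 0.00676, adjusted p = 0.130 in limma), with 3.02% of genes called. In both the estimated rise was smaller after 20E, and neither difference passed over all genes. They passed in limma with library weights (-2.05, adjusted p = 0.0186 at 6 h, and -1.85, adjusted p = 0.0329 at 24 h). There 1.28% and 7.61% of genes were called. They also passed in limma with a length covariate (-2.28, adjusted p = 0.00896, and -2.03, adjusted p = 0.00783), where 0.365% and 6.43% were called.

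Kr-h1 varied between cultures of 1 group more than most genes. Its residual SD, after group and run, was 0.53 on the log2 scale, above that of 97.6% of tested genes and against a median of 0.20. The coefficient of variation was 65.8% at 6 h and 56.8% at 24 h of JH3, against 49.9% in the 20E baseline. It was 13.5% at 30 min, 28.1% at 6 h and 17.0% at 24 h of 20E, against 48.4% in the JH3 baseline. These spreads were not tested against each other.

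The slope of expression on gene length, a property of each library, moved with this spread. Over the 35 libraries its Pearson r with log2 Kr-h1 was 0.38, and it was 0.62 when both were taken as deviations from their group means, as a description with no test. Among cultures given JH3 for 6 h, the slope was 0.068 in the culture at 118 FPKM and -0.182 in that at 25.0 FPKM. With the slope as a covariate in limma, the difference at 6 h of JH3 was 2.90 (adjusted p = 1.77e-06), at 24 h 2.52 (adjusted p = 0.000349) and between the baselines 1.80 (adjusted p = 7.91e-05).

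Of the juvenile hormone pathway, 3 listed genes were matched by symbol and 2 could be tested. No symbol matched the receptor Met, and jhamt, an enzyme of juvenile hormone synthesis, was under the filter. Neither Fkbp39, a prolyl isomerase, nor br, the zinc finger regulator of the pupal stage, was called in any of the 7 comparisons with a baseline. Over all tested genes 21.1% were called between the baselines and 0% to 5.22% after the switches, so 0 of 2 says little about the pathway. Across the settings 0 or 1 of the 2 was called lower in the JH3 baseline than in the 20E baseline. Fkbp39 was at 20.3 ± 5.97 FPKM after 6 h of JH3 (n = 5) against 19.6 ± 3.64 in the 20E baseline (n = 5), and br was at 7.58 ± 3.81 FPKM after 6 h of JH3 against 9.65 ± 6.95 FPKM in the 20E baseline. With Kr-h1 itself, only these few genes of the pathway were matched by symbol.

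After the switches, the ecdysone response genes that were called were called in other comparisons than Kr-h1. Of 14 tested, 0 were called at 30 min, 6 h or 24 h of JH3 in limma, where Kr-h1 rose at the last 2 times. Over all tested genes 0%, 0.0506% and 0.243% were called there, so 0 of 14 says little about these genes. Their median difference was -0.11 at 6 h, against -0.0046 over all tested genes, and 0.12 at 24 h, against 0.015. In JH3 cultures given 20E, 3 of 14 rose at 6 h, where 0.506% of all tested genes were called. At 24 h, where 5.22% were called, 8 of 14 rose and 3 fell. With library weights, where 2.19% of all tested genes were called, 6 rose at 6 h. With only the compared groups 1 did, as within either set of runs, and these fits called 0.0405% to 0.162% of all tested genes. With only the compared groups 5 rose and 1 fell at 24 h. The median was 0.29 at 6 h and 0.97 at 24 h, against medians over all genes of 7.82e-05 and -0.019.

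The ecdysone-induced nuclear receptor E75 was at 488 ± 69.7 FPKM after 6 h of 20E (n = 6) and 517 ± 96.0 FPKM after 24 h (n = 4), against 45.0 ± 11.8 FPKM in the JH3 baseline (n = 4). Its differences were 3.41 (adjusted p = 2.45e-11) and 3.44 (adjusted p = 2.82e-10) in limma. E75 was thus already high by 6 h in the cultures in which Kr-h1 was not called. At 24 h of 20E the ABC transporter gene E23 rose by 3.82, the nuclear receptors Hr4 by 3.32, Hr3 by 1.59 and Hr39 by 1.46, the Ets factor Eip74EF by 1.54, the metamorphic factor Eip93F by 1.30 and the kinase Eip63E by 0.64. The nuclear receptor ftz-f1 fell by 1.81, usp by 1.28 and Ecr by 0.52, the last with an adjusted p of 0.0492 in limma. At 6 h the other 2 calls were Eip74EF at 0.91 and Hr39 at 0.87.

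Between the baselines, where 21.1% of all tested genes were called, 9 of the 14 differed. In runs B and C together 5 did, where 10.8% were called. Of the 9, the 4 that were higher became 2 when replicate 3 or 5 of the 20E baseline, or replicate 2 of the JH3 baseline, was left out. Like Kr-h1, usp (2.34), ftz-f1 (2.34), Hr38 (1.48) and Ecr (0.45) were higher in JH3 cultures, with usp at 47.7 ± 11.0 FPKM in the JH3 baseline (n = 4) and 9.08 ± 3.49 FPKM in the 20E baseline (n = 5). Lower in JH3 cultures were Hr4 (-3.69), E23 (-2.82), Eip93F (-1.54), Hr3 (-1.46) and E75 (-0.81). Hr4 was at 5.30 ± 2.58 FPKM in the JH3 baseline and 81.2 ± 36.8 FPKM in the 20E baseline. After 24 h of 20E, usp was at 19.6 ± 4.99 FPKM and ftz-f1 at 11.4 ± 3.27 FPKM in JH3 cultures (n = 4), where Kr-h1 stayed at 49.0 ± 8.33 FPKM. No difference between Kr-h1 and these genes was tested.

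**Figure D3:**
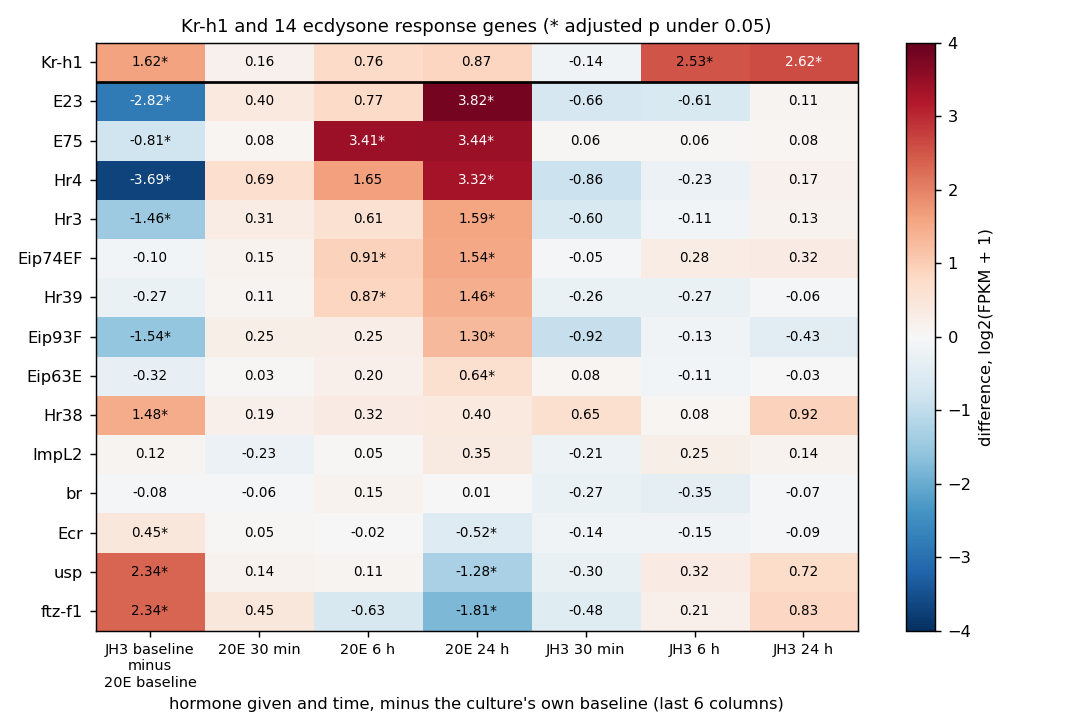
Differences of Kr-h1 (top) and the 14 tested ecdysone response genes in 7 comparisons, on the log2(FPKM + 1) scale from limma. The first column is the JH3 baseline minus the 20E baseline, the next 3 columns are JH3 cultures given 20E and the last 3 are 20E cultures given JH3, each minus its own baseline; stars mark an adjusted p under 0.05. After JH3 at 6 h and 24 h, where 0.0506% and 0.243% of all tested genes were called, the stars are on Kr-h1 alone. After 20E at 24 h, where 5.22% were called, stars are on 11 of the 14 other genes.

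Of 6 tested genes for ecdysteroid synthesis and turnover, only Cyp18a1, which inactivates 20E, was called after 20E. It rose by 1.20 at 6 h and 1.18 at 24 h (adjusted p = 5.30e-05 and 7.11e-05 in limma), where 0.506% and 5.22% of all tested genes were called. Its level was low, at 0.24 ± 0.15 FPKM in the JH3 baseline (n = 4) and 1.84 ± 0.75 FPKM after 6 h of 20E (n = 6). After 24 h it ran from 0.83 to 3.25 FPKM (n = 4). None of the 6 was called after JH3. There 0% to 0.243% of all tested genes were called, so 0 of 6 says little about these genes. Of 5 immediate early genes, which respond fast to stimulation, Hr38 differed between the baselines (adjusted p = 0.0496 in limma), where 21.1% of all tested genes were called. None of the 5 was called after either switch, where 0% to 5.22% of all tested genes were called by time and hormone. The call of Hr38 was lost with the replicate block, without the run term, with voom and with the pseudocounts of 0.1 and 0.5, among other settings, and when any library of either baseline but JH3 baseline replicate 4 was left out. Oatp74D, the importer that carries ecdysone into cells, had the highest r with Kr-h1 among listed genes. It stood at 20.5 ± 7.0 FPKM after 6 h (n = 5) and 33.5 ± 8.50 FPKM after 24 h of JH3 (n = 3), against 12.8 ± 5.65 FPKM in the 20E baseline (n = 5). Its 24 h difference of 1.28 did not pass (adjusted p = 0.123 in limma).

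Among the 3898 other tested genes with a symbol, those whose level followed Kr-h1 most closely over the 35 libraries were, by Pearson r on log2(FPKM + 1), cwo (0.70), Sidpn (0.69), Glut4EF (0.68), Drat (0.67), Oatp74D (0.66), trc (0.64), Trim9 (0.63), Psq (0.61), Kdm3 (0.60) and Msx (0.60). Another 6 genes without a symbol had a higher r than the last of these. With Spearman's rho the value of cwo was 0.37, and 6 of these 10 genes were again among the 10 highest. Over all genes Pearson r ran from -0.38 at the 5th to 0.40 at the 95th percentile. All these values share the same libraries and groups, so they describe likeness and carry no test. The lowest were pall (-0.67), Not10 (-0.58), Rab8 (-0.57), baf (-0.55) and Ctu2 (-0.52).

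The gene cwo, which in Drosophila encodes a bHLH repressor of the circadian clock, had 5.56 ± 0.95 FPKM in the 20E baseline (n = 5), 7.87 ± 3.16 after 30 min (n = 3), 15.0 ± 1.52 after 6 h (n = 5) and 12.9 ± 0.82 after 24 h of JH3 (n = 3). In JH3 cultures it stayed between 14.0 ± 2.95 FPKM (6 h of 20E, n = 6) and 16.0 ± 1.77 FPKM (30 min, n = 5). Like Kr-h1 it was low in the 20E cultures that had not had 6 h of JH3, and it varied less between cultures. Sidpn, a gene of the Hairy family in Drosophila, was at 13.8 ± 1.86 FPKM in the 20E baseline, 41.0 ± 6.16 after 6 h and 31.2 ± 3.96 after 24 h of JH3. Its JH3 baseline was at 16.7 ± 4.51 FPKM (n = 4), near its 20E baseline, while that of Kr-h1 was above its own.

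Sidpn and cwo were also among the 5 genes called at 6 h of JH3, named after their values were seen. Sidpn differed by 1.51 (SE 0.15), cwo by 1.28 (SE 0.15) and Pino by 0.79 (SE 0.14), with limma adjusted p of 2.56e-07, 5.65e-06 and 0.0120. The gene LOC105192299, which has no symbol, differed by 1.71 (SE 0.14), at 4.20 ± 1.69 FPKM after 6 h (n = 5) and 0.67 ± 0.23 FPKM in the 20E baseline (n = 5). All 5 were higher after JH3. Kr-h1 had the largest difference and also the largest SE of them.

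**Figure D4:**
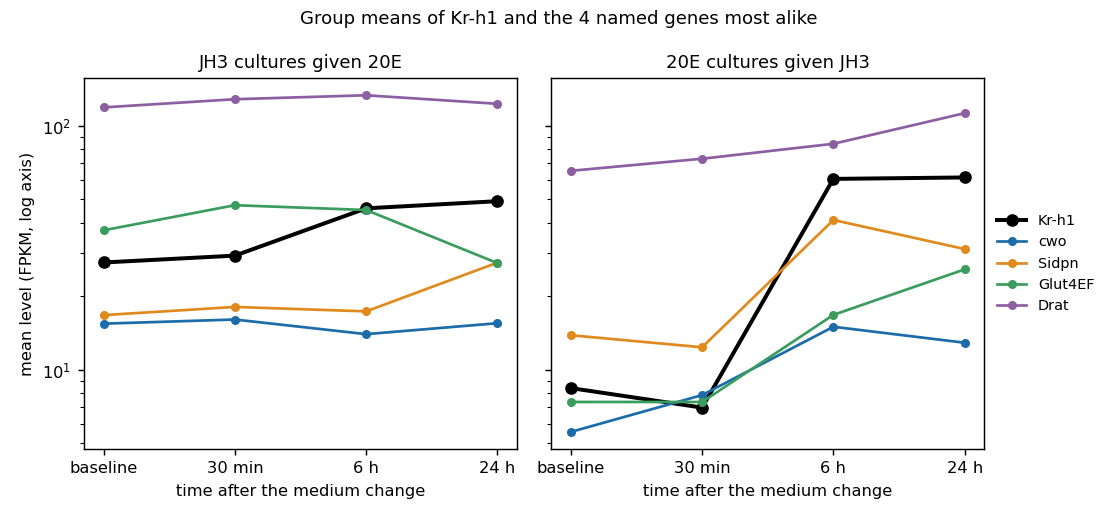
Group mean level (FPKM, log axis) of Kr-h1 and the 4 named genes with the highest Pearson r to it, by time after the medium change, for JH3 cultures given 20E and 20E cultures given JH3. In 20E cultures the means of Kr-h1, Sidpn, cwo and Glut4EF are higher at 6 h than at 30 min of JH3, and in JH3 cultures Glut4EF is lower at 24 h of 20E, at 27.3 FPKM, where Kr-h1 is at 49.0 FPKM.

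Likeness was also taken once group and run were removed. On those residuals the highest Pearson r were of sick (0.87), the laminin subunit LanB1 (0.83), tna (0.83), tam (0.83) and fra (0.83), and of the 10 named above Psq was highest at 0.80, with Trim9 at 0.69, Kdm3 and Drat at 0.59, Sidpn at 0.41 and cwo lowest at -0.09. Over all genes the residual r ran from -0.61 at the 5th to 0.64 at the 95th percentile, so many genes shared the culture-to-culture variation of Kr-h1. The gene sick, which in Drosophila encodes a regulator of the actin skeleton, was at 42.6 ± 15.9 FPKM after 6 h of JH3 (n = 5) against 52.1 ± 15.5 FPKM in the 20E baseline (n = 5), where Kr-h1 rose.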

How the data were processed

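The deposited file holds FPKM values, made by the authors, for 14001 genes in 35 libraries of polyadenylated, strand-specific RNA. Reads were demultiplexed, aligned, counted and scaled with tools that, per the submitters' processing notes, were DESeq2, featureCounts, STAR and bcl2fastq. Their versions and the genome build are not given here by the labels or files; coordinates are left out. Symbols were looked up in RefSeq's gene table for Hsal_v8.6 (13989 of 14001 identifiers matched, 4117 with a symbol).

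Groups were read from the sample titles, and sequencing runs from the date and flow cell in the descriptions. The 9873 genes that reached an FPKM of 1 in 3 or more libraries were kept. Their log2(FPKM + 1) was modelled in limma 3.58.1 (R 4.3.3) on group and run, using every library, with a prior that follows the mean level and robust moderation. The p-values are two-sided and Benjamini-Hochberg adjusted over all tested genes, with calls under 0.05. Single pairs of groups had exact permutation tests, which took no account of run.

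Within a gene the deposited values were whole multiples of what 1 read is worth. Reads were recovered for 13014 genes, all tested genes included, with 100.0% of values above 0 lying within 0.03 of a whole read (farthest 4.77e-05). Between libraries that worth tracked size factors from median ratios (spread 0.241%) better than total reads (8.30%). These reads entered voom, as an alternative, and the length trend.

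Kr-h1, the gene lists and the tests were chosen with earlier results of these data known. The genes named were Kr-h1, the 10 highest and 5 lowest in Pearson r with it, the 5 highest on residuals, and the members of the juvenile hormone and ecdysone response lists. Named outside this rule, after their values were seen, were Cyp18a1, Pino, LOC105192299, repo, Hex70a, fdl and apolpp. Symbols were matched ignoring case, except that h, phm and Vg, which then match other genes, had to match exactly. The scripts were tested on simulated data. The labels do not say whether a replicate number is shared between groups. Over 105 pairs of cultures with the same number the median correlation of deviations was 0.013 (range -0.56 to 0.64). Over 427 pairs with different numbers it was 0.0046 (range -0.60 to 0.74). A median near 0 cannot exclude that some cultures were paired.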

Additional observations from a re-analysis of the deposited data

How the results depend on the processing

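Each result was recomputed under up to 17 other settings (pseudocounts of 0.1 and 0.5, other filters, median-ratio and quantile scaling, voom on recovered reads, other run terms, single runs, library weights, a length covariate, the replicate number as a block, only the compared groups, exact permutation tests, and 2 libraries left out together) and without each library. Within run A no value exists for comparisons that need 24 h cultures. With only the compared groups, the rise of Kr-h1 after JH3 was 2.69 at 6 h and 1.87 at 24 h. In run A it was 3.57 at 6 h. Runs B and C together gave 1.75 at 6 h and 2.12 at 24 h, where the JH3 baseline minus the 20E baseline was 1.12. None of these 6 values passed. For the rises after JH3 these fits called 0% to 0.0608% of tested genes. Library weights gave 1.15 for 24 h of 20E, -2.05 for the difference between the switches at 6 h and -1.85 at 24 h. The length covariate gave -2.28 and -2.03 for that difference, and these 5 passed. Both settings also called more genes in these comparisons, with 20.4% under library weights at 24 h of 20E against 5.22% in the report. The cause was not tested. Signs turned only for results whose value in the report was within 1 SE of 0. The 30 min difference after JH3 was 0.16 with library weights, 0.27 in run A and 0.21 with the length covariate, and after 20E it was -0.030 in run A and -0.027 with the length covariate. The difference between the switches at 30 min was -0.30 within run A and -0.24 with the length covariate. The 24 h minus 6 h difference of JH3 was -0.064 with quantile scaling, -0.18 with library weights and -0.37 with the length covariate, and that of 20E was -0.017 with the replicate block and -0.13 with the length covariate. The block changed no call and gave 2.53 at 6 h of JH3 (limma adjusted p = 0.00271), 2.63 at 24 h (0.0218) and 1.56 for the baselines (0.00742). With run means removed 5 pairs of groups had an adjusted p under 0.05, against 11 in the report, and the correlation with cwo was 0.37 as Spearman's rho. Leaving out each library in turn changed no call of Kr-h1. Without 1 library, the rise ranged from 2.25 to 2.80 at 6 h and from 2.19 to 2.95 at 24 h of JH3, and the baseline difference from 1.34 to 1.90. It ranged from -0.11 to 0.42, 0.48 to 1.00 and 0.56 to 1.09 at 30 min, 6 h and 24 h of 20E, and from -0.40 to 0.10 at 30 min of JH3. The 24 h minus 6 h difference ranged from -0.030 to 0.20 for 20E and from -0.34 to 0.44 for JH3. Kr-h1 had at least 191 reads in every library, and groups had 3 to 6 cultures.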
